A study of Homo sapiens with 10 samples.

Results

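The calpains, their small subunit and their inhibitor calpastatin were followed in the transcriptome of HCT116 cells, a human colorectal carcinoma line. The 8 genes were the rows of the deposited table whose Ensembl identifiers map to CAPN1, CAPN2, CAPN5, CAPN7, CAPN10, CAPN15, CAPNS1 and CAST, out of 58050 identifiers in all. They were chosen with the difference between the groups known, so their own differences are given as a description without p-values. The choice states no threshold. The lowest of the 8, CAPN5, had a mean of 5.11 TPM over all libraries, and the highest calpain gene outside them, CAPN12, had 1.15 TPM.

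RNA of 5 HCT116-WT and 5 HCT116-CD276KO samples was sequenced, and the 10 libraries were deposited as TPM, a transcript abundance divided by transcript length and scaled to the same total in each library. HCT116-CD276KO cells had received Cas9 protein with a guide RNA against CD276, which encodes the immune checkpoint protein B7-H3, and came from 1 single cell clone. The labels also name a scrambled guide RNA as control, but do not say whether the HCT116-WT samples had received it. Since the replicates are cultures and not clones, the spread between them says nothing about the spread between clones, and a CD276 effect and a difference of this clone cannot be told apart.

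Calpains are calcium-dependent cysteine proteases of the cytosol that cut their substrates at few sites and so alter rather than degrade them. The conventional calpains are heterodimers of a large catalytic subunit, from CAPN1 in calpain-1 or CAPN2 in calpain-2, with the common small subunit from CAPNS1, and calpastatin, from CAST, is their specific protein inhibitor. In epithelial and carcinoma cells they are known for cutting focal adhesion and cytoskeletal proteins during cell movement.

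The catalytic members share the codon of the active-site cysteine, which is shown to place each gene within the family. The 27 coding bases around it were read from hg38 (GRCh38) with the GENCODE 44 canonical transcripts, 5′ to 3′ on the coding strand, with the cysteine codon in capitals. CAPN12 stands beside the members because it is described with them below.
CAPN1: gcactgggggacTGCtggctcttggcg
CAPN2: gccctgggtgacTGCtggctgctggca
CAPN5: caggtgggcaacTGCtggtttgtggca
CAPN7: atagtatcggatTGCtcctttgtggca
CAPN10: ctgctgggggatTGCtggttcctgtgt
CAPN15: ctgctggggaacTGCtggttcctgagc
CAPN12: agcctgggtaacTGCtggttccttgca
The codon was number 115 of CAPN1 and number 105 of CAPN2. For CAPN1 the bases lie at chr11:65183191-65183493 (+ strand) on both sides of an intron, in exons 3 and 4 of 22. For CAPN2 they lie at chr1:223717825-223744119 (+) in exons 2 and 3 of 21, and for CAPN12 at chr19:38742509-38743039 (- strand) in exons 2 and 3 of 21. Those of CAPN5 (chr11:77093745-77093771), CAPN7 (chr3:15228977-15229003) and CAPN10 (chr2:240589406-240589432) lie within 1 exon on the + strand, and those of CAPN15 (chr16:549185-549297, +) in exons 5 and 6 of 14. CAPN2 had 22 of the 27 bases of CAPN1 and the other members 14 to 18. Over the aligned coding sequence CAPN2 was 69.6% identical to CAPN1, and the other 4 catalytic members were 58.7% to 65.5% identical to it. None of the 50-base windows along the canonical transcript of any member occurred in a transcript of another gene on the same strand, so reads of the sequenced length can be assigned to each of them. On the opposite strand, 7.85% of the windows of CAPN15 and 5.31% of those of CAST overlapped another gene, and the library kit keeps the strand.

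The promoters of the 2 conventional catalytic subunits are shown because CAPN1 and CAPN2 changed their order between the groups in the results below. The windows of 300 bases around the transcription start are from RefSeq on GRCh38.p14, 5′ to 3′ on the + strand, with each GC box (GGGCGG or its complement CCGCCC) in capitals.
CAPN1 promoter, chr11:65181678-65181977: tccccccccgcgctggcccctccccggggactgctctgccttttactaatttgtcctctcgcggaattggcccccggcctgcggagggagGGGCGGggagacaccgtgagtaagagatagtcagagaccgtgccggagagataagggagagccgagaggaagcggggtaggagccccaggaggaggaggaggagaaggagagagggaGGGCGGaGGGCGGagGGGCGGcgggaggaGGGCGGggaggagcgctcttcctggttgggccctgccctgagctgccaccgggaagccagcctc
CAPN2 promoter, chr1:223712289-223712588: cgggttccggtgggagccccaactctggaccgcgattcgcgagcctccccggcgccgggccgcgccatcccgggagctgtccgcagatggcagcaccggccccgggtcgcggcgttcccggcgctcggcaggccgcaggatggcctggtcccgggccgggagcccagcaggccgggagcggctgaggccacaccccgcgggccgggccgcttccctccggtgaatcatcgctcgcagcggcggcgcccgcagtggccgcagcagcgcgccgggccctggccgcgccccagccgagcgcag
The CAPN1 window held 5 GC boxes and the CAPN2 window 0, although the GC content was 69.0% and 79.7%. An entry was found for 7 of the 8 members. Counting both strands, CAPN7 had 5 GC boxes, CAPN15 and CAPNS1 had 4 each, CAPN10 had 3 and CAST had 2. Of all 35116 windows of this length in the table, 45.0% held at least 1 GC box. TATAAA, which cannot overlap a GC box, was found in 0 of the 7 windows on either strand and in 11.5% of all windows. A match of letters is a description of the sequence and not a binding site.

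CD276 itself was 45.3 ± 6.17 TPM (SD, n = 5) in HCT116-WT and 5.46 ± 1.21 TPM in HCT116-CD276KO libraries, or 12.1% of the wild-type level. The epithelial markers KRT8, KRT18, KRT19, EPCAM and CDH1 were measured in all libraries, and the intestinal transcription factor CDX2 was 8.91 ± 2.00 TPM in HCT116-WT and 9.27 ± 1.12 TPM in HCT116-CD276KO. The intestinal genes CDX1 and VIL1 were at or near 0. PTPRC, CD14, ITGAM, PECAM1, COL1A2 and VWF, which mark other cells, stayed near 0 in both groups. The 8 such markers summed to between 18.6 and 22.7 TPM in HCT116-WT and between 10.9 and 19.3 TPM in HCT116-CD276KO, mostly from CD68 and COL1A1. In HCT116-CD276KO replicates 2 and 3 the deviation of genes from their mean fell with transcript length, with a Spearman coefficient across genes of -0.52 and -0.49. It rose with length in HCT116-WT replicates 1, 2 and 5, at 0.39 to 0.43, and in HCT116-CD276KO replicates 1 and 5, at 0.26 and 0.32. HCT116-WT replicate 3 and HCT116-CD276KO replicate 2 rose with GC content, at 0.61 and 0.48. These coefficients are across genes, which are not independent replicates. Results are therefore also given with these trends removed by local regression. TPM carry no counts, so the number of reads behind each value is unknown, although the methods give an average depth per sample.

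Of the 8 members, CAPN1 differed most between the groups. Its transcript in HCT116-CD276KO was at 42.9% of the wild-type level, whereas CAPN2 was at 85.7%, CAPNS1 at 87.5% and CAST at 77.0%. CAPN5, CAPN7, CAPN10 and CAPN15 overlapped between the groups. Of the 8 members, 2 were lower at an adjusted p under 0.05 in the fit across all genes, namely CAPN1 and CAPNS1, beside 4.09% of the 13581 genes tested and 4.87% in either direction. CAPN1 alone was also past 2-fold, beside 0.464% of all genes lower and 0.486% in either direction. No member was higher at that threshold, as 0.781% of all genes were. As the contrast was used to choose the members, these counts describe them and show nothing more.

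**Figure D1:**
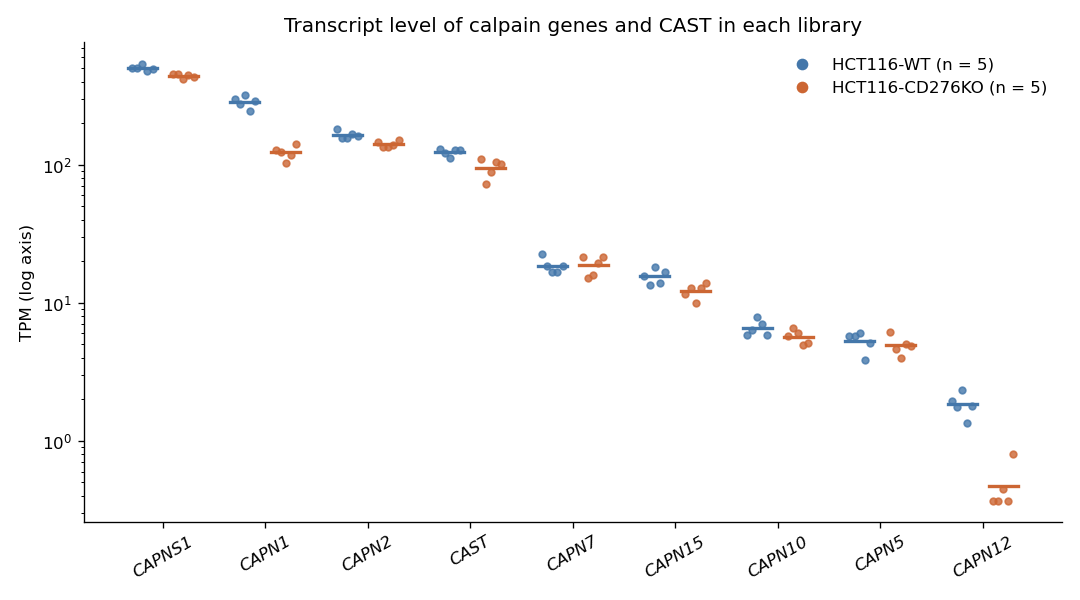
TPM of the 8 members and of CAPN12 in each library on a log axis, with points for the 5 HCT116-WT and 5 HCT116-CD276KO libraries and bars at the group means. CAPN1 has means of 286 and 123 TPM, above CAPN2 in HCT116-WT and below it in HCT116-CD276KO, while CAPN5, CAPN7, CAPN10 and CAPN15 overlap.

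CAPN1 (ENSG00000014216, chromosome 11, 65180566 to 65212006, + strand) encodes the large subunit of calpain-1, the form active at micromolar calcium. In HCT116-WT it was 301, 274, 319, 245 and 290 TPM in replicates 1 to 5. The HCT116-CD276KO libraries held 128, 123, 102, 117 and 142 TPM. The groups did not overlap, and the lowest wild-type library was more than 100 TPM above the highest knockout library. The means were 286 ± 27.9 and 123 ± 14.5 TPM (SD, n = 5). On the log2(TPM + 1) scale the difference was -1.22 (SE 0.09, 95% interval -1.42 to -1.01). It was -1.12 both after median-of-ratios scaling and with the trends removed, and between -1.27 and -1.15 when any library was left out.

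CAPN2 (ENSG00000162909, chromosome 1, 223701593 to 223776018, + strand) encodes the large subunit of calpain-2, which needs more calcium. Its values were 181, 156, 156, 168 and 160 TPM in HCT116-WT. In HCT116-CD276KO they were 146, 135, 133, 139 and 151 TPM. All knockout values lay below all wild-type values, by a gap that was narrow beside the spread in either group. The difference was -0.22 on the log2(TPM + 1) scale (SE 0.06, 95% interval -0.35 to -0.09) and did not pass the threshold. With the length and GC trends removed it was -0.10, and the groups then overlapped.

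CAPN1 and CAPN2 changed places. CAPN1 was above CAPN2 in 5 of 5 HCT116-WT libraries, with CAPN1 minus CAPN2 between 77.2 and 162 TPM. It was below CAPN2 in 5 of 5 HCT116-CD276KO libraries, with CAPN1 minus CAPN2 between -31.1 and -9.21 TPM. As a share of CAPN1 plus CAPN2, CAPN1 was 62.4, 63.8, 67.1, 59.3 and 64.4% in HCT116-WT replicates 1 to 5. It was 46.8, 47.7, 43.4, 45.8 and 48.4% in HCT116-CD276KO. The conventional catalytic transcripts were thus mostly CAPN1 in wild-type cells and close to evenly divided in knockout cells. The mean shares were 63.4 ± 2.83% and 46.4 ± 1.96% (SD, n = 5), and 63.6 ± 2.22% and 46.2 ± 2.45% with the trends removed. The shares are of transcripts per length and not of protein or activity, which were not analysed here.

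**Figure D2:**
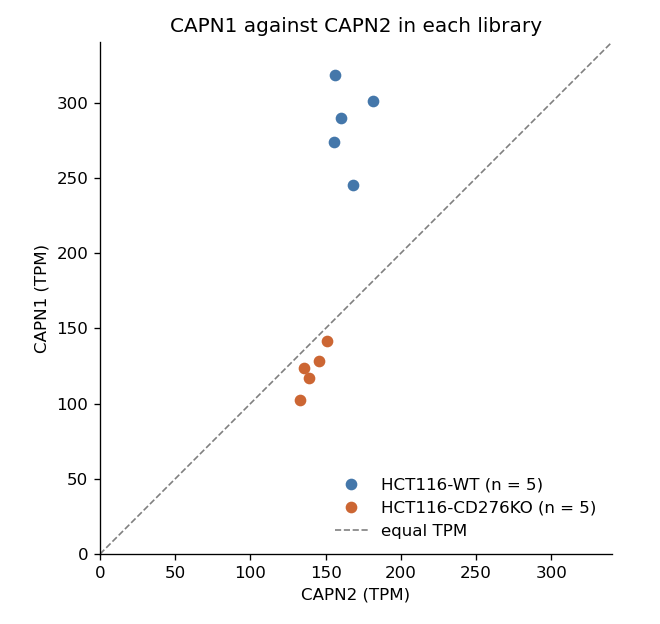
CAPN1 against CAPN2 in TPM, with 1 point for each library and a dashed line where both are equal. The 5 HCT116-WT libraries lie above the line with CAPN1 between 245 and 319 TPM, and the 5 HCT116-CD276KO libraries lie below it with CAPN1 between 102 and 142 TPM.

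CAPNS1 (ENSG00000126247, chromosome 19, 36139953 to 36150353, + strand), the common small subunit, was the most abundant of the 8 transcripts in 10 of 10 libraries. It was 504, 501, 534, 478 and 496 TPM in HCT116-WT. Its HCT116-CD276KO values were 453, 455, 414, 446 and 431 TPM. The groups did not overlap, but the gap between them was small beside that of CAPN1. The difference was -0.19 on the log2(TPM + 1) scale (SE 0.05, 95% interval -0.30 to -0.08). Its call lay at the edge of the threshold and was lost in 18 of 19 alternative fits, including the omission of each single library. After median-of-ratios scaling the difference was -0.09 and the groups overlapped, whereas with the length and GC trends removed it was -0.18 and they did not.

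CAST (ENSG00000153113, chromosome 5, 96525267 to 96779595, + strand) encodes calpastatin. Its level was 130, 122, 112, 128 and 127 TPM in HCT116-WT. In HCT116-CD276KO the values were 110, 72.4, 88.9, 104 and 101 TPM. The lowest values were those of knockout replicates 2 and 3, the same libraries whose values fell with transcript length. The coefficient of variation was 5.65% in HCT116-WT and 15.7% in HCT116-CD276KO. The difference was -0.39 on the log2(TPM + 1) scale (SE 0.10, 95% interval -0.61 to -0.16) and did not pass the threshold. With the trends removed it was smaller, at -0.24, yet passed, and it also passed at -0.44 without HCT116-CD276KO replicate 1. With both replicates 2 and 3 left out it was -0.23 and did not pass.

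Of the 8 members, 4 were lower in HCT116-CD276KO without overlap between the groups, namely CAPN1, CAPN2, CAPNS1 and CAST, beside 6.19% of all genes tested. No member was higher without overlap, as 1.42% of all genes were. After median-of-ratios scaling 3 members remained so, CAPN1, CAPN2 and CAST, beside 4.42%. With the length and GC trends removed 3 members did, CAPN1, CAPNS1 and CAST, beside 5.41%. Without HCT116-CD276KO replicates 2 and 3 the count was 5 members, beside 8.52%. CAPN1 and CAST were thus free of overlap in each of the first 3 settings. The median difference of the 8 members was -0.21 on the log2(TPM + 1) scale and that of all 13581 genes -0.09. The median of all genes was 0.00 after median-of-ratios scaling and 0.01 with the trends removed, so small negative differences here include a shift common to most genes.

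**Figure D3:**
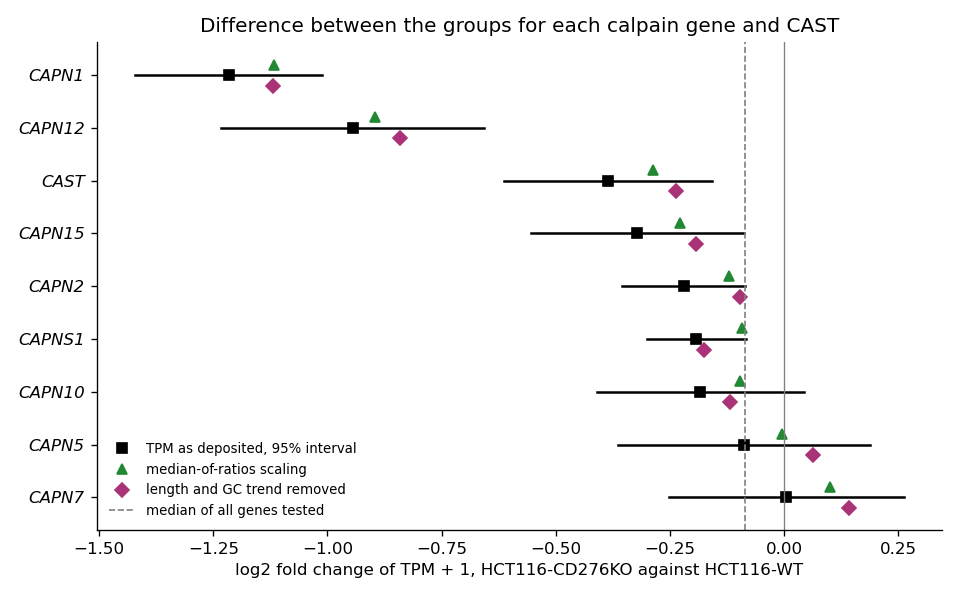
Log2 fold change of TPM + 1 between HCT116-CD276KO and HCT116-WT for the 8 members and CAPN12, as squares with 95% intervals from the TPM as deposited, triangles after median-of-ratios scaling and diamonds with length and GC trends removed. CAPN1 at -1.22 and CAPN12 at -0.95 stand apart from the other genes, which lie between -0.39 and 0.00, and the dashed line marks the median of all genes tested at -0.09. The members were chosen with this contrast known, and CAPN12 passed the filter on low values only through its wild-type libraries. Both differences are therefore a description.

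The small subunit and the inhibitor were also set against the catalytic transcripts they pair with. CAPN1 plus CAPN2 summed to 450 ± 29.4 TPM in HCT116-WT and 263 ± 21.4 TPM in HCT116-CD276KO (SD, n = 5). CAPNS1 per CAPN1 plus CAPN2 was 1.05, 1.17, 1.12, 1.16 and 1.10 in HCT116-WT replicates 1 to 5. It was 1.65, 1.76, 1.76, 1.74 and 1.47 in HCT116-CD276KO. The small subunit transcript was above the sum of both large subunits in all 10 libraries, and the ratios of the groups did not overlap. The means were 1.12 ± 0.048 and 1.68 ± 0.122, and 1.16 ± 0.051 and 1.62 ± 0.102 with the trends removed.

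CAST per CAPN1 plus CAPN2 was 0.269, 0.283, 0.237, 0.309 and 0.283 in HCT116-WT. It was 0.402, 0.280, 0.378, 0.408 and 0.344 in HCT116-CD276KO. The groups overlapped through knockout replicate 2 alone. Without it the knockout values began at 0.344, above all wild-type values. The means were 0.276 ± 0.026 and 0.362 ± 0.053 (SD, n = 5). Relative to the catalytic transcripts, calpastatin was therefore higher on average in the knockout libraries although its own level was lower. With the trends removed the ranges were 0.247 to 0.301 and 0.327 to 0.395 and did not overlap. These ratios restate the lower CAPN1 level and are not independent of it.

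**Figure D4:**
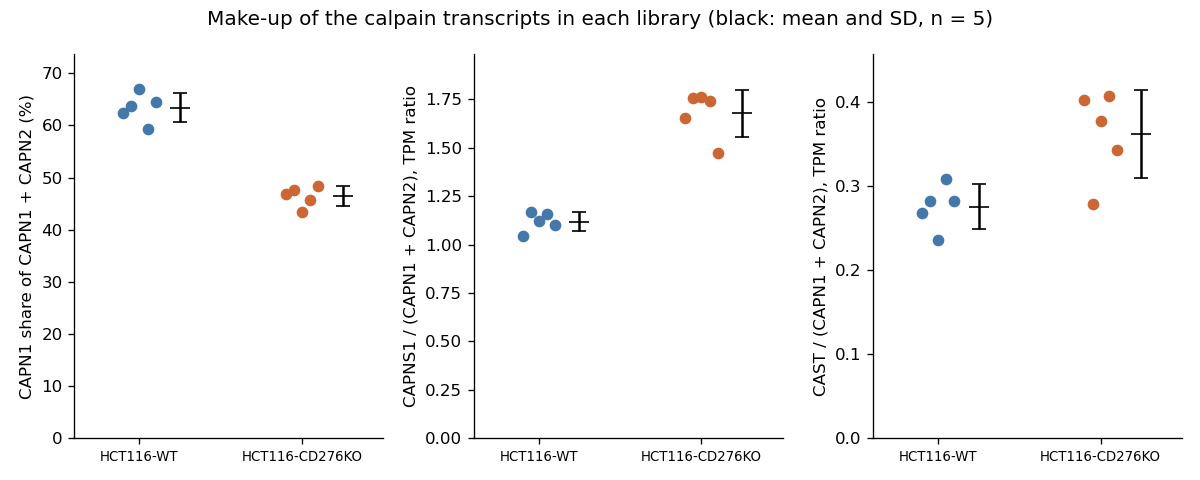
Share of CAPN1 in CAPN1 plus CAPN2 in percent, CAPNS1 per CAPN1 plus CAPN2 and CAST per CAPN1 plus CAPN2 as TPM ratios, with a point for each of 5 libraries per group and the mean with SD in black. The mean share is 63.4% in HCT116-WT and 46.4% in HCT116-CD276KO, the mean ratios are 1.12 and 1.68 for CAPNS1 and 0.276 and 0.362 for CAST, and of the 3 measures only the CAST ratio overlaps between the groups.

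All 8 members summed to 1122 ± 46.8 TPM in HCT116-WT and 840 ± 42.6 TPM in HCT116-CD276KO. Of the difference of 282 TPM, CAPN1 made up 57.8%, CAPNS1 22.3%, CAST 10.1% and CAPN2 8.32%. The 4 other members together were a small part of the sum in every library.

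The members outside the conventional heterodimers were expressed at low to moderate levels. CAPN7 (ENSG00000131375, chromosome 3), a calpain without the penta-EF-hand domain, was 22.4, 18.4, 16.7, 16.8 and 18.4 TPM in HCT116-WT. It was 21.5, 15.03, 16.0, 19.4 and 21.6 TPM in HCT116-CD276KO. The ranges were nearly the same, and the difference was 0.00 on the log2(TPM + 1) scale (SE 0.12, 95% interval -0.25 to 0.26).

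CAPN15 (ENSG00000103326, chromosome 16), the human counterpart of the fly gene small optic lobes, was 15.5, 13.4, 18.3, 13.8 and 16.7 TPM in HCT116-WT. It was 11.6, 12.9, 9.97, 12.8 and 14.01 TPM in HCT116-CD276KO. Only the highest knockout value reached into the wild-type range. The difference was -0.32 (SE 0.11, 95% interval -0.55 to -0.09) and did not pass the threshold, and it was -0.19 with the trends removed.

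CAPN10 (ENSG00000142330, chromosome 2), studied as a candidate gene for type 2 diabetes, was 5.89, 6.33, 7.91, 7.07 and 5.84 TPM in HCT116-WT. It was 5.79, 6.61, 6.05, 4.91 and 5.11 TPM in HCT116-CD276KO. The groups overlapped, with a difference of -0.18 on the log2(TPM + 1) scale (SE 0.10, 95% interval -0.41 to 0.04). CAPN5 (ENSG00000149260, chromosome 11), a widely expressed calpain without the penta-EF-hand domain, was 5.71, 5.79, 6.02, 3.88 and 5.11 TPM in HCT116-WT. It was 6.19, 4.59, 3.95, 5.04 and 4.86 TPM in HCT116-CD276KO. The highest value of CAPN5 was thus in a knockout library and the lowest in a wild-type library. Its difference was -0.09 (SE 0.13, 95% interval -0.36 to 0.19), and 0.06 with the trends removed. The intervals of CAPN5, CAPN7 and CAPN10 do not reach a 2-fold change in either direction.

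The order of the members was almost the same in every library. CAPNS1 was in place 1 and CAST in place 4 in 10 of 10 libraries, with CAPN1 and CAPN2 in between. CAPN7 was in place 5 in all but HCT116-WT replicate 3, where CAPN15 was, and CAPN10 and CAPN5 took the last places. Over the 5 libraries of a group, CAPN10 and CAPN5 overlapped in level in both groups, and CAPN7 and CAPN15 in HCT116-WT only. CAPN1 overlapped with CAPN2 above it and with CAST below it in HCT116-CD276KO, and with neither in HCT116-WT.

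Of the 9 other calpain genes, 1 passed the filter on low values. CAPN12, a catalytic calpain described mainly in hair follicles, was 1.93, 1.77, 2.35, 1.34 and 1.79 TPM in HCT116-WT. It was 0.37, 0.37, 0.45, 0.37 and 0.80 TPM in HCT116-CD276KO. The groups did not overlap, and the gene passed the filter of a mean of 1 TPM only through its wild-type values. Since a gene admitted by its higher group had to differ, its difference of -0.95 on the log2(TPM + 1) scale (SE 0.13) is given as a description without a p-value. The log2 ratio of the group means was -1.96, as the added 1 dampens low values. CAPN12 overlaps ACTN4 and the unnamed gene ENSG00000267892 on the opposite strand, and 26.2% of its windows matched transcripts of these genes. ACTN4 was 660 ± 44.6 TPM in HCT116-WT and 510 ± 80.5 TPM in HCT116-CD276KO, and its part in the CAPN12 value was not tested.

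The 8 remaining calpain genes were below the filter. CAPN3, the muscle calpain, was 0.26 to 0.53 TPM in HCT116-WT and 0.21 to 0.76 TPM in HCT116-CD276KO. CAPN6, which lacks the active-site cysteine, was 0.04 to 0.13 TPM in HCT116-WT and listed at 0 in 5 of 5 HCT116-CD276KO libraries. CAPN8 reached 0.31 TPM and CAPN13 0.16 TPM at most. CAPNS2, a second small subunit gene, reached 0.09 TPM at most, CAPN11 was listed above 0 in 1 library only, and CAPN9 and CAPN14 were listed at 0 in all. HCT116 cells thus showed transcripts of the widely expressed calpains and very little of those known from muscle, stomach or testis.

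The genes beside CAPN1 on chromosome 11 differed less between the groups. The nearest tested genes before it were MRPL49, which encodes a mitochondrial ribosomal protein, SPDYC and CAPN1-AS1, and their differences were -0.02, -0.09 and -0.06 on the log2(TPM + 1) scale. CAPN1-AS1 overlaps the start of CAPN1 on the opposite strand and was 2.61 ± 0.158 TPM in HCT116-WT and 2.47 ± 0.232 TPM in HCT116-CD276KO (limma, adjusted p = 0.711). After it, POLA2, a subunit of DNA polymerase alpha, differed by -0.08 and the chromatin remodelling subunit DPF2 by -0.20, and neither passed the test. CDC42EP2, an effector of the GTPase CDC42, fell from 17.9 ± 0.699 to 14.2 ± 1.3 TPM, by 0.31 on that scale (limma, adjusted p = 0.0322). This call was lost after median-of-ratios scaling (limma, adjusted p = 0.109). It was kept with the length and GC trends removed (limma, adjusted p = 0.0385), although the groups then overlapped. Each of the 6 neighbours differed by less than CAPN1, although that contrast between genes was not tested.

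Genes with a pattern like that of CAPN1 were ranked over the 10 libraries by the root mean square difference of log2(TPM + 1) values, each centred on its own mean. The closest of the 13580 others were PRSS22, a serine protease of airway epithelium, at 0.093, PRRC2A, an RNA-binding protein, at 0.107, and KLF4, a transcription factor of differentiated gut epithelium, at 0.113. TIMM17B, a part of the mitochondrial import machinery, followed at 0.114, and WNT7B, a WNT ligand, at 0.136. KLF4 was 29.7 ± 1.47 TPM in HCT116-WT and 11.2 ± 1.28 TPM in HCT116-CD276KO, and PRRC2A was 138 ± 9.90 and 61.8 ± 4.28 TPM. CAPN12 was in place 14 of this ranking, CAPN15 in place 826 and CAST in place 926. The added 1 dampens low values, which brings low genes such as PRSS22 and CAPN12 closer to CAPN1 here. Without it, the log2 ratio of the group means was -1.22 for CAPN1 and -1.96 for CAPN12. For PRSS22, PRRC2A, KLF4, TIMM17B and WNT7B it was -1.62, -1.16, -1.41, -1.40 and -1.49. The ranking mainly reflects the difference between the groups, which CAPN1 was chosen on.

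Calpain substrates were measured as 18 genes, all tested, of which 1 rose, 1 fell and 16 did not pass. Of all genes tested, 0.781% rose and 4.09% fell. This list and those below were chosen with earlier results of these data known, so their adjusted p-values are given as descriptions. The median difference of the substrates was -0.11 on the log2(TPM + 1) scale, beside -0.09 for all genes. VIM, which encodes the intermediate filament protein vimentin, was 4.42, 3.97, 4.32, 3.98 and 4.43 TPM in HCT116-WT. The 5 HCT116-CD276KO values were 6.70, 6.42, 6.97, 7.07 and 6.85 TPM. It was higher in 5 of 5 knockout libraries, by 0.58 (SE 0.07; limma, adjusted p = 0.000656).

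CDH1, which encodes the epithelial adhesion protein E-cadherin, was 47.9, 44.5, 43.3, 34.6 and 43.4 TPM in HCT116-WT. In HCT116-CD276KO it was 29.2, 14.3, 16.6, 20.0 and 21.8 TPM. It was lower in 5 of 5 knockout libraries, by a log2 difference of -1.07 (SE 0.16; limma, adjusted p = 0.0031). The most abundant substrates did not pass the test. EZR, the membrane linker ezrin, was 1517 ± 121 and 1287 ± 156 TPM, and the GTPase RHOA was 780 ± 28.8 and 814 ± 23.4 TPM. With the trends removed 4 of the 18 passed, beside 1299 of all 13472 genes.

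CDH1 also stood among the epithelial markers, of which 5 of the 6 tested fell, beside 4.09% of all genes tested. KRT8, a keratin of simple epithelia, was 2082 ± 177 TPM in HCT116-WT and 1553 ± 110 TPM in HCT116-CD276KO (limma, adjusted p = 0.00441). Its partner KRT18 was 821 ± 32.8 and 625 ± 42.6 TPM (adjusted p = 0.00263). KRT19 and the adhesion molecule EPCAM fell by 0.29 and 0.35 on the log2(TPM + 1) scale (limma, adjusted p = 0.0486 and 0.0322). Each of these 2 calls was lost in 13 of 19 alternative fits, and with any 1 library left out KRT19 kept its call in 1 of 10 fits and EPCAM in 2 of 10. After median-of-ratios scaling 1 of the 6 passed, beside 583 of all 13581 genes. The count was 5 of the 6 with the length and GC trends removed, beside 1299 of all 13472 genes. These 5 markers, like CAPN1, had lower means in HCT116-CD276KO, whereas CDX2 differed by 0.07 on the log2(TPM + 1) scale. Their part in the CAPN1 difference was not tested. In bulk cultures of a cell line, fewer cells with a transcript and less of it per cell cannot be told apart.

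Calcium entry and release, on which calpain activity depends, was measured as 10 genes, of which 0 passed by limma and 2 had an unadjusted p under 0.05. Of all 13581 genes, 662 and 2977 did. PIEZO1, a mechanically gated channel, was 42.7 ± 6.61 TPM in HCT116-WT and 40.6 ± 4.53 TPM in HCT116-CD276KO. ITPR3, the main inositol trisphosphate receptor here, was 33.0 ± 2.00 and 26.6 ± 4.58 TPM, a difference that did not pass (log2 -0.32, limma, adjusted p = 0.124). With the trends removed 3 of the 10 passed, all of them higher in HCT116-CD276KO and none of them PIEZO1 or ITPR3. After median-of-ratios scaling 1 of these passed, again higher. Over all genes these settings called 1299 of 13472, with 600 higher, and 583 of 13581, with 197 higher.

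The other penta-EF-hand proteins share the calcium-binding fold of the calpain subunits. Of 4 tested, 1 rose and 0 fell, beside 0.781% and 4.09% of all genes tested. GCA, or grancalcin, rose from 16.6 ± 1.25 to 21.2 ± 1.43 TPM, by 0.34 on the log2(TPM + 1) scale (SE 0.07; limma, adjusted p = 0.0241). It was higher in 5 of 5 knockout libraries, but its call was lost without HCT116-CD276KO replicate 3 or 4, or HCT116-WT replicate 2, 4 or 5. The other 3 did not pass, among them SRI, or sorcin, at 144 ± 4.46 and 133 ± 7.32 TPM and PDCD6, or ALG-2, at 88.8 ± 7.49 and 93.0 ± 7.25 TPM.

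Cysteine cathepsins are lysosomal proteases and cystatins their inhibitors. Of 15 genes, 10 were tested, of which 2 rose and 2 fell, beside 0.781% and 4.09% of all genes tested. CTSL, or cathepsin L, was 70.0, 61.6, 52.6, 64.3 and 70.3 TPM in HCT116-WT. In HCT116-CD276KO it was 37.5, 39.8, 37.4, 41.9 and 37.2 TPM. All 5 knockout libraries were thus lower, with a log2 difference of -0.70 (SE 0.08; limma, adjusted p = 0.000519).

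CTSC, the activator of granule serine proteases, fell by 0.36 (SE 0.09; limma, adjusted p = 0.0336), without overlap. Its call was lost in 12 of 19 alternative fits and kept in 3 of the 10 that left out 1 library, and after median-of-ratios scaling the groups overlapped. The cystatins CST6 and CSTA rose by 0.64 (SE 0.12) and 0.53 (SE 0.10; limma, adjusted p = 0.0131 and 0.0142), each in 5 of 5 knockout libraries. For CSTA the groups overlapped with the length and GC trends removed, although its call was kept (limma, adjusted p = 0.0126). The most abundant genes of the list, CTSB at 290 ± 17.2 and 273 ± 14.7 TPM and CST3 at 117 ± 16.2 and 106 ± 10.3 TPM, did not pass. The median of the list was -0.06, and 6 of the 10 passed with the trends removed, beside 1299 of all 13472 genes.

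Caspases and their IAP inhibitors, the proteases of apoptosis that calpains are known to act beside, were measured as 12 genes. Of these, 0 passed by limma, 3 had an unadjusted p under 0.05, and 2 passed with the trends removed. Over all genes these counts were 662 and 2977 of 13581, and 1299 of 13472. The median of the caspase and IAP genes was -0.14 on the log2(TPM + 1) scale. BIRC5, or survivin, was 218 ± 13.4 and 236 ± 12.8 TPM, and CASP2 was 39.9 ± 3.75 and 35.8 ± 7.64 TPM.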

How the data were processed

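Per the labels and the methods, strand-specific libraries of polyadenylated RNA were sequenced from 1 end for 50 bases. Reads were mapped to hg38 with STAR 2.5.2b, and Ensembl 86 genes were quantified with RSEM 1.3.0 and featureCounts 1.5.1. The authors deposited TPM values. Which program gave them is not given in the sources used here. Identifiers were matched to GENCODE 44 on hg38, and 56947 of 58050 had a symbol.

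The filter, a mean of 1 TPM or more over all libraries, kept 13581 genes. On log2(TPM + 1) values the groups were compared with limma 3.58.1 (R 4.3.3), using empirical Bayes moderation, a variance trend and Benjamini-Hochberg adjustment over all of them. All members passed the filter. The replicates are cultures, so p-values measure the spread between cultures only. In the length and GC correction, local regression (span 0.3) was fitted in each library to the 13472 genes with both values. The members and gene lists were chosen with earlier results of these data known. Named were CD276, the members, all other calpain genes, the 2 most abundant and up to 4 called genes with the lowest adjusted p of each other list, the 3 nearest tested genes on each side of CAPN1 and the 5 genes most like it. ACTN4 was added after its values were seen. In simulated data for the main comparison, 194 of 200 changed genes were recovered among 13581, with 6 false calls. With the trends removed these were 192 of 198 among 13472, with 7 false calls. The planted changes were larger than that of any member, and the simulated noise was independent between libraries, without length or GC trends. These numbers therefore say nothing about smaller differences or about libraries with such trends. Sequences were read with Biopython 1.88 under Python 3.11.15, and figures were drawn with matplotlib 3.10.9. Alternatives were another pseudocount, filter, scaling, variance model, replicate block and the omission of libraries. No library was left out of the main comparison.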

Additional observations from a re-analysis of the deposited data

Results flagged for a closer look

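In 10 of 103 groups of 5 values, the highest or lowest library lay further from its neighbour than 0.71 of the whole range. Chance gives about 1 in 20, or 5.15 such groups, and 7 of the 10 were values of HCT116-WT replicate 3 or HCT116-CD276KO replicate 2. Among the calpain genes, CAPN12 was 0.8 TPM in HCT116-CD276KO replicate 5, with the other 4 libraries between 0.37 and 0.45 TPM, and CAPN11 was 0.02 TPM in replicate 4 and listed at 0 in the others. In HCT116-CD276KO replicate 2 the outlying values were RHOA at 855.75 TPM, PIEZO1 at 48.59 TPM, CST3 at 124.1 TPM and KRT8 at 1746.73 TPM. In HCT116-WT replicate 3 they were CTSB at 320.2 TPM, CST3 at 145.77 TPM and KRT19 at 1481.35 TPM. CD68 was lowest in HCT116-WT replicate 4, at 8.89 TPM. None of the 8 members had such a value in either group.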

How the results depend on the processing

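CAPN1 kept its direction and its call in all 19 alternative fits, with log2 differences between -1.27 and -1.12. Of the 8 members, 2 were called, and the count was 1 with a pseudocount of 0.1, with no filter, with a mean of at least 5 TPM, after median-of-ratios scaling, after quantile normalization, with a robust variance model, with the replicate block and without HCT116-CD276KO replicates 2 and 3, a setting chosen after seeing the data. With any 1 library left out it was 1 to 2, and with the length and GC trends removed it was 3. The 662 genes called became 1299 with the trends removed, 378 with the replicate block, 339 without HCT116-CD276KO replicates 2 and 3 and 343 to 857 with 1 library left out. Calls split into 106 higher and 556 lower in the main comparison, 197 and 386 after median-of-ratios scaling, 253 and 385 after quantile normalization and 600 and 699 with the trends removed. The 66 genes called and changed at least 2-fold became 40 with a mean of at least 5 TPM and 112 with a pseudocount of 0.1. Of the listed genes outside the members and the cell type markers, 8 were called, beside 662 of all 13581 genes. The number was 17 with the trends removed, beside 1299 of 13472, and 5 with the block, beside 378 of 13581. These counts include CAPN12, which the filter admitted only through its wild-type values, so its call is not a test result.

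CAPN5 turned to 0.063 with the trends removed, 0.023 after quantile normalization and 0.020 without HCT116-CD276KO replicates 2 and 3. CAPN7 ran from -0.048 to 0.075 with 1 library left out. PIEZO1 turned to 0.14 with the trends removed, 0.034 after median-of-ratios scaling and 0.028 after quantile normalization, and ran from -0.13 to 0.016 with 1 library left out. CTSB turned to 0.052 with the trends removed and 0.014 after median-of-ratios scaling. Without HCT116-CD276KO replicates 2 and 3, PDCD6 turned to -0.011 and CASP2 to 0.030, and the calls of CAPNS1, CST6, CSTA, CTSC, KRT19 and EPCAM were lost. None of these reversed values was called, and the cause was not tested.

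The deviations of samples with the same replicate number had correlations across genes of 0.087, -0.181, 0.037, -0.027 and 0.119 for numbers 1 to 5. These deviations also carry the length and GC trends of each library, so they cannot decide whether the number pairs samples. With the block the calls of CAPNS1, GCA, CSTA, CTSC, KRT19 and EPCAM were lost. CAPN12 could not be tested with a mean of at least 5 TPM. The number of reads behind each value is unknown, so the precision of low genes rests on the 5 libraries of each group.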

Other observations

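Among the calpain substrates, EGFR, the receptor for epidermal growth factor, was 29.7, 28.9, 23.9, 23.1 and 28.8 TPM in HCT116-WT replicates 1 to 5. In HCT116-CD276KO it was 20.5, 8.77, 11.2, 17.8 and 21.1 TPM. The groups did not overlap, and the lowest values were those of knockout replicates 2 and 3. The log2 difference was -0.79 (SE 0.21; limma, adjusted p = 0.0572), and with the length and GC trends removed it was -0.53 (adjusted p = 0.0170). The gene was singled out after its values were seen.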
